A study of Mus musculus with 4 samples.

Results

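Zbtb16, Fkbp5, Tsc22d3, Sgk1, Klf9 and Nr3c1 are 6 of the 52636 genes counted here in single cells from mouse glomeruli, the capillary tufts through which the kidney filters blood. They were taken by gene symbol as genes of the glucocorticoid response, and they were chosen because of their difference between young and aged libraries, so the values of that difference below are a description without a test. The study has 2 libraries of young and 2 of aged mice, all of them without treatment. Magnetic beads were perfused through the heart, and glomeruli held by a magnet were then digested into a cell suspension for droplet sequencing of transcript 3' ends. Strain, sex, age in months and how many mice went into a library are not given in the sources used here. No steroid was given and none was measured, so the name of the gene group rests on general knowledge of these genes and not on these samples.

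Glucocorticoids such as corticosterone, the main one in mice, cross the cell membrane and bind the glucocorticoid receptor, which is encoded by Nr3c1. The bound receptor leaves its chaperones, enters the nucleus and binds DNA elements built as an inverted repeat. It raises transcription of genes such as Fkbp5, Tsc22d3, Sgk1, Klf9 and Zbtb16, and it lowers that of many inflammatory genes. In the kidney the receptor is found in podocytes, endothelial cells and mesangial cells, and glucocorticoids are used against glomerular disease.

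Nr3c1 (ENSMUSG00000024431) is the receptor gene. Among the targets, with positions in the GRCm38 build, Fkbp5 (ENSMUSG00000024222, chromosome 17, 28399094 to 28517527, minus strand) encodes a co-chaperone that binds the receptor complex and lowers its affinity for hormone. It overlaps 4 other annotated genes, 2 of them on the same strand. Tsc22d3 (ENSMUSG00000031431, chromosome X, 140539528 to 140600659, minus strand) encodes GILZ, a leucine zipper protein that restrains inflammatory transcription. Sgk1 (ENSMUSG00000019970, chromosome 10, 21882184 to 21999903, plus strand) encodes a kinase that acts on sodium channels and transporters. Klf9 (ENSMUSG00000033863, chromosome 19, 23141226 to 23168134, plus strand) and Zbtb16 (ENSMUSG00000066687, chromosome 9, 48654297 to 48836222, minus strand) encode zinc finger transcription factors, and Zbtb16 is also known as PLZF.

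The receptor's element was looked for in windows of 250 bases before to 50 bases after annotated start sites, taken from RefSeq for GRCm38.p6. The motif was the half-site GNACA, then 3 bases of any kind, then its reverse complement TGTNC, where N is any base. It is an inverted repeat, so a match on one strand is a match on both. The table held 11 windows for 4 of the 6 members (Fkbp5, Tsc22d3, Sgk1 and Klf9). The motif stood in 1 of them, a window of Sgk1, 188 bases before the start site. This window is shown because it is the one of the 11 with a match, and the match is in capitals (GRCm38.p6, plus strand, 5' to 3').
Sgk1, chr10:21993640-21993939: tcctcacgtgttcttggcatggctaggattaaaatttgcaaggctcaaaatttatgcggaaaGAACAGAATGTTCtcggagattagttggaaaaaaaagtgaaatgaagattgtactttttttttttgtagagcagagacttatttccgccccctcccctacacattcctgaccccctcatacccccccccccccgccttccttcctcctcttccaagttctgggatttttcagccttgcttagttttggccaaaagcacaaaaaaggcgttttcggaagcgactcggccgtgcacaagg

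Of all 32851 windows, 156 (0.475%) held the motif, and by gene these were 145 of 27025 (0.537%). Of 32 other genes known to be induced by glucocorticoids, a list described below, 29 had a window and 4 of the 29 (13.8%) held the motif. None of the 9 chaperone and steroid-handling genes with a window and none of the 7 repressed genes with a window held it, against 1 of the 13 genes with a window that are induced by tissue dissociation. A match is a description of letters in the window. The 4 matches among the induced genes are shown with 10 bases on each side, in the direction of the gene, with the match in capitals.
Mt1 (metallothionein, 94 bases before the start site), chr8:94178985-94179017, plus strand: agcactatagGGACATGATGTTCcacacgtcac
Fam107a (actin regulator, 118 bases before the start site), chr14:8309875-8309907, minus strand: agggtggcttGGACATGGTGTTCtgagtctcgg
Map3k6 (kinase, 181 bases before the start site), chr4:133240627-133240659, plus strand: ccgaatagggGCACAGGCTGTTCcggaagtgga
Txnip (thioredoxin inhibitor, 172 bases before the start site), chr3:96557775-96557807, plus strand: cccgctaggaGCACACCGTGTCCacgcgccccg

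The libraries held 5532 and 9649 barcodes (young replicates 1 and 2) and 10621 and 7521 (aged replicates 1 and 2), and 5035 to 9187 cells per library were kept. The median number of unique molecular identifiers (UMIs, counts of captured molecules) per kept cell was 1258 to 3730. Any 2 libraries shared 9 to 31 barcodes, at most 0.346% of the smaller one. Young replicate 2 stood apart: it had the lowest median, and 55.3% of its kept cells lay in clusters with markers of several cell types, against 0.544% to 1.29% in the other libraries. These cells were left out. Clusters were named by marker genes. Among the marker lists, their own had the highest sum in podocytes, endothelial cells and mesangial cells of every library, which did not hold for parietal epithelial cells. There were 2396 and 1365 young and 5985 and 4252 aged endothelial cells, 1752 and 575 young and 974 and 646 aged podocytes (the epithelium on the outer side of the capillaries), 239 and 144 young and 533 and 377 aged mesangial cells (contractile cells between the capillaries), and 30 and 81 young and 53 and 44 aged parietal cells of the capsule's epithelium. Nothing in the labels says how many animals stand behind a library, so the spread between libraries may be partly technical.

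Levels are given as CPM, the UMIs of a gene per 1000000 UMIs summed over the cells of a class in a library. Differences between groups on the log2 scale come from edgeR after TMM scaling, which corrects for a few abundant genes. Without that correction the median log2 ratio of aged over young of all tested genes was −0.12 in endothelial and −0.13 in mesangial cells, and with it the median was −0.01 and 0.00.

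The receptor itself showed small differences between the ages. In endothelial cells Nr3c1 stood at 245 and 267 CPM in young replicates 1 and 2, and at 193 and 231 in aged replicates 1 and 2. Neither aged library reached the lower young one, with an aged over young ratio of the means of 0.828, and the log2 difference was −0.15 (SE 0.15) after TMM scaling and −0.02 without aged replicate 1. In mesangial cells the values were 365 and 369 in young and 217 and 329 in aged libraries. These libraries did not overlap either, and the log2 difference of −0.30 (SE 0.19) was −0.05 without aged replicate 1. In podocytes Nr3c1 stood at 86.2 and 104 in young and at 95.5 and 103 in aged libraries, which overlapped.

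Fkbp5, the co-chaperone, was higher in the aged libraries of the vascular and mesangial cells. In endothelial cells it stood at 2.87 and 2.84 CPM in the young libraries and at 37.0 and 11.8 in the aged libraries. The aged libraries differed widely among themselves and both lay above the young pair. The log2 difference was 3.20 (SE 0.44), and it was 2.16 without aged replicate 1 and 3.15 without young replicate 2. In mesangial cells Fkbp5 went from 28.7 and 26.2 to 117 and 70.9, a log2 difference of 1.89 (SE 0.29). It was 1.46 without aged replicate 1 and 1.83 without young replicate 2. In podocytes it was scarce, with 5 and 6 UMIs in the libraries from young mice and 38 and 15 in the aged libraries, which is 0.66 and 1.93 against 6.93 and 3.09 CPM. The log2 difference in podocytes of 2.28 (SE 0.51) was 1.47 without young replicate 1 and 1.55 without aged replicate 1.

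Tsc22d3 was higher in aged podocytes, where it stood at 102 and 74.9 CPM in the young libraries and at 203 and 137 in the aged libraries. The 4 libraries did not overlap, and the log2 difference was 0.97 (SE 0.15), with 0.69 to 1.27 when 1 library was left out. In endothelial cells it went from 94.0 and 85.9 to 116 and 109, a log2 difference of 0.44 (SE 0.14) that was 0.33 without young replicate 2. In mesangial cells it stood at 37.9 and 24.7 in young and 30.6 and 33.8 in aged libraries, and these overlapped.

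Sgk1 and Klf9 differed little between the ages in glomerular cells. Sgk1 in endothelial cells stood at 969 and 1096 CPM in the young libraries and at 1192 and 1044 in the aged libraries. These overlapped on this scale and did not after TMM scaling, where the log2 difference was 0.24 (SE 0.17). In podocytes Sgk1 stood at 22.8 and 28.9 in young and at 27.7 and 21.2 in aged libraries, with a log2 difference of 0.01 (SE 0.18). Klf9 in endothelial cells went from 405 and 391 to 441 and 417, which is a ratio of the means of 1.08 without overlap. In mesangial cells it went the other way, from 388 and 416 to 358 and 257, and there the libraries overlapped after TMM scaling.

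Zbtb16 had the widest gap between the ages among the 6 genes in endothelial and mesangial cells. In endothelial cells 38 and 21 UMIs were counted in the libraries from young mice and 1228 and 956 in the aged libraries, which is 6.05 and 5.41 CPM against 77.0 and 60.1 CPM. All 4 libraries fell into a low young and a high aged pair. The ratio of the means was 11.9, and the log2 difference was 3.67 (SE 0.20), with 3.57 without young replicate 2 and 3.49 to 3.84 when any 1 library was left out. In mesangial cells Zbtb16 stood at 19.4 and 4.63 in the young libraries and at 96.2 and 51.7 in the aged libraries. Young replicate 2 had 3 UMIs there, and the log2 difference of 2.55 (SE 0.43) was 4.12 without young replicate 1 and 2.06 without young replicate 2.

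Podocytes carried few molecules of Zbtb16. No UMI was found in young replicate 1, which allows up to 0.396 CPM, and 1 was found in young replicate 2. There were 24 and 19 UMIs in the aged libraries, or 4.38 and 3.91 CPM. The ratio of the means was 25.8. Over the summed libraries the aged level was 44.4 times the young one, with an exact counting interval of 7.56 to 1795. Of the podocyte clusters, the one led by Gas1 held 0 and 1 young and 22 and 19 aged Zbtb16 UMIs. The one led by Kcna6 held 0 and 0 young and 2 and 0 aged UMIs, and there the ages overlapped. Endothelial markers in the podocyte sums stood at 0.171% and 0.587% of their level in endothelial cells of the same library for young replicates 1 and 2, and at 0.289% and 0.299% for aged replicates 1 and 2. On the same measure Zbtb16 stood at 0% and 5.94%, then at 5.68% and 6.52%, and Sgk1 at 2.36% and 2.64%, then at 2.32% and 2.03%. The part of endothelial RNA in the podocyte values was not tested. In B cells 0 of 330 cells had a Zbtb16 UMI, which allows a share of up to 0.909%, at median depths of 1210 to 1727 UMIs.

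In young replicate 2, endothelial markers in the parietal epithelial sum stood at 9.5% of their endothelial level, against 0.188% to 0.333% in the other libraries, and podocyte markers there summed to 1885 CPM. The 5 parietal epithelial markers summed to 1863 and 1786 CPM in this class for young replicates 1 and 2, and to 3134 and 3599 for aged replicates 1 and 2, with Cdh6 at 0 in young replicate 2. The smooth muscle and renin markers in the same sums stood at 957.2 and 2878 CPM in young and at 3761 and 6963 in aged libraries, above the class's own markers in 3 of the 4. Of these 6 markers, 5 were at 0 in young replicate 1 (all but Tagln) and 3 in each other library. Their sums thus rest on few of the markers. The part of these other cells in the values of this class was not tested. Parietal epithelial cells gave 3, 1, 5 and 13 Zbtb16 UMIs in young replicates 1 and 2 and aged replicates 1 and 2. The levels of all 6 genes overlapped between the ages in these cells. Smooth muscle and renin cells had 1 and 4 Zbtb16 UMIs in young and 8 and 7 in aged libraries (4.76 and 17.0 against 37.7 and 43.6 CPM), and the summed ratio was 3.59 (exact counting interval 1.24 to 12.6). Macrophages were almost absent from the young libraries (3 and 12 cells). In the aged libraries they held Zbtb16 at 4.78 and 3.12 and Fkbp5 at 61.5 and 29.1 CPM.

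**Figure D1:**
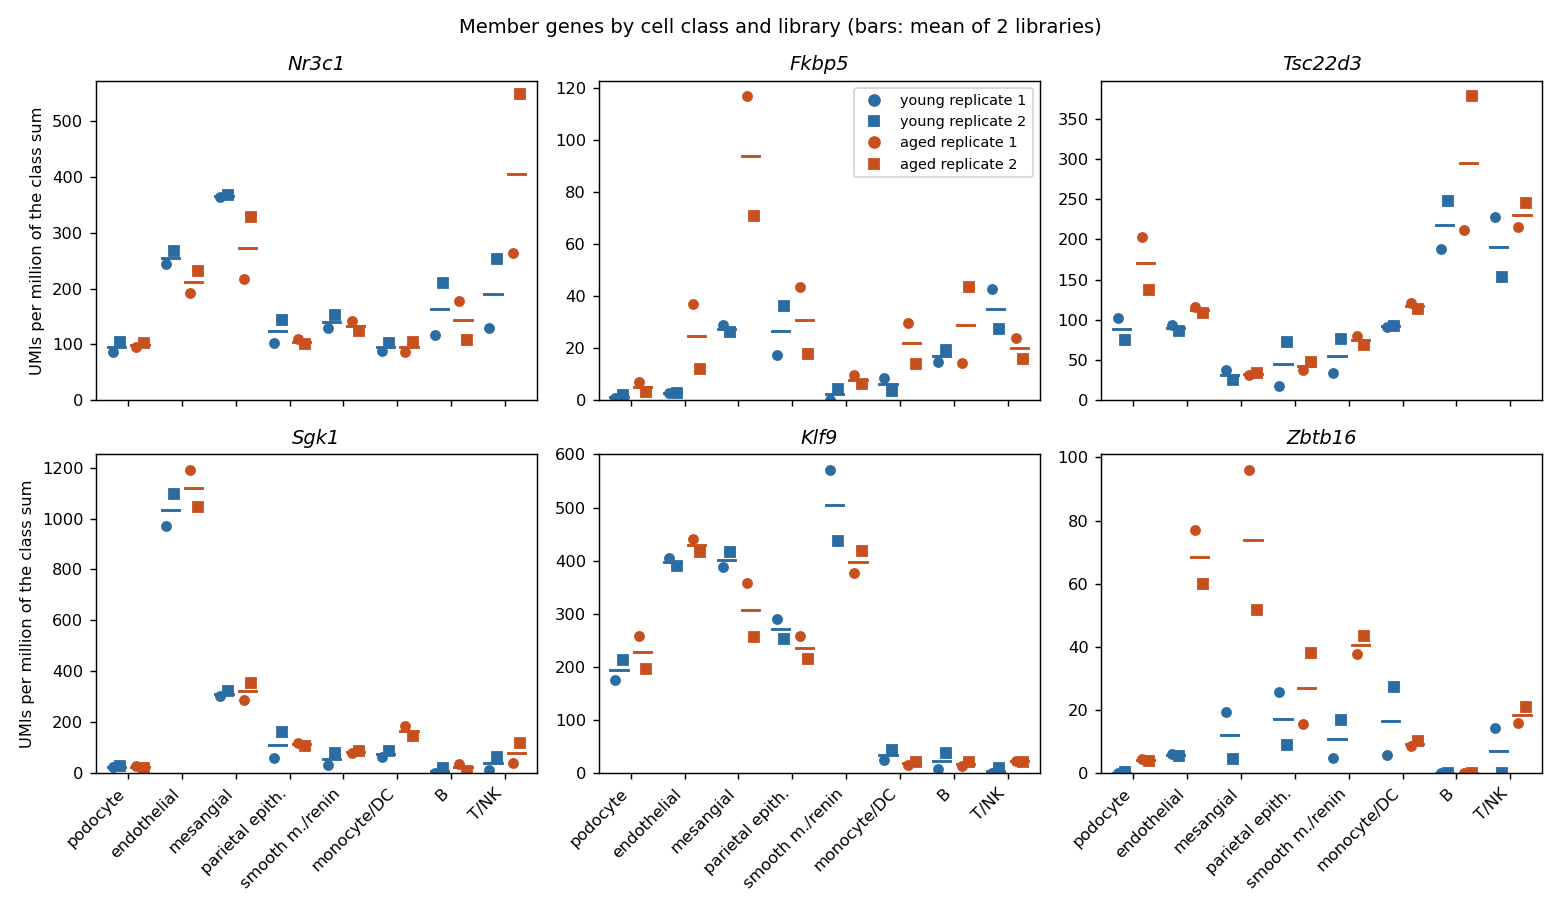
CPM of the class sum (y axis, linear, from 0) of each of the 6 genes in 8 cell classes with at least 20 cells in every library; each point is 1 library and each bar the mean of 2. Aged endothelial libraries stand at 77.0 and 60.1 for Zbtb16 against 6.05 and 5.41 in the young ones, while Sgk1 ranges from 969 to 1192 in endothelial cells of all 4 libraries.

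Across the 8 classes with at least 20 cells in every library, both aged libraries exceeded the young pair in 5 classes for Zbtb16 and in 5 for Fkbp5. The count was 3 for Tsc22d3, 1 for Sgk1, 2 for Klf9 and 1 for Nr3c1. They fell short of the young pair in 1 class for Fkbp5, 3 for Klf9 and 2 for Nr3c1. For comparison, of all genes with 10 or more UMIs, the aged pair exceeded the young pair for 16.8% in endothelial cells, 18.4% in podocytes, 18.1% in mesangial cells, 19.8% in parietal epithelial cells, 15.5% in smooth muscle and renin cells, 20.7% in monocytes and dendritic cells, 18.5% in B cells and 20.4% in T and NK cells. It fell short of the young pair for 33.1%, 27.4%, 31.5%, 18.2%, 23.7%, 19.8%, 19% and 14.8% in the same order. After TMM scaling the shares above and below were 25.1% and 22.4% in endothelial cells, 22.8% and 22.8% in podocytes, 25% and 23.2% in mesangial cells and 19.7% and 19.2% in parietal epithelial cells. Nothing is read from these counts, since the members were chosen on this contrast, and the classes come from the same 4 libraries.

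The share of cells with a UMI was compared at equal depth, with each cell thinned to 1000 UMIs. For Zbtb16 the share of endothelial cells was 0.676% and 0.664% in the libraries from young mice and 6.94% and 5.81% in the aged libraries. Before thinning it was 1.54% and 1.54% against 16.9% and 18.1%, at median depths of 2312, 2643, 2335 and 3214 UMIs. Cells under 1000 UMIs were left out (28, 161, 124 and 19 endothelial cells). The share of mesangial cells was 2.12% and 0.719% in the libraries from young mice and 7.91% and 4.81% in the aged libraries. In podocytes it stayed at 0.411% or lower in every library. For Fkbp5 the endothelial share after thinning came to 0.422% and 0.249% in the libraries from young mice and 3.60% and 0.992% in the aged libraries. The thinned Fkbp5 share of mesangial cells was 2.12% and 3.60% against 11.1% and 7.22%.

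The endothelial difference was also present within clusters, as given for the 7 endothelial clusters with at least 20 cells in every library. The aged pair exceeded the young pair in 7 of 7 clusters for Zbtb16, with aged over young ratios of 5.61 to 21.1, and in 7 of 7 for Fkbp5, with ratios of 2.24 to 20.4. The Fkbp5 ratio of 2.24, in cluster 21, rests on 1 and 1 young and 10 and 1 aged UMIs. Aged replicate 2 lay above the young pair there only because its UMI sum was smaller. Zbtb16 had 1 and 0 young and 24 and 2 aged UMIs in that cluster. The Fkbp5 ratio of 20.4, in cluster 0, rests on 1 and 1 young against 247 and 57 aged UMIs. Nr3c1 was lower in both aged libraries in 7 of 7 clusters on this scale, with ratios of 0.725 to 0.876, and in 5 of 7 after TMM scaling. Of all genes with 10 or more UMIs, 0.619% lay higher and 0.588% lower in both aged libraries in all 7 clusters, and after TMM scaling 1.23% and 0.236%. Tsc22d3 was higher in both aged libraries in 5 of 7 clusters on both scales. Sgk1 was higher in 3 of 7 clusters and in 6 of 7 after TMM scaling. Klf9 went both ways, higher in 3 clusters, lower in 1 and overlapping in 3. After TMM scaling it was higher in 4 and overlapped in 3. The share of all genes was not taken for counts under 7 of 7, so nothing is read from those counts.

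The level of Zbtb16 varied between the clusters. In the largest cluster, led by the adhesion molecule gene Sele and by Lrg1, it stood at 8.37 and 5.48 CPM in the young libraries and at 90.9 and 75.5 in the aged libraries. In the cluster led by Cnmd and Sost the values were 1.71 and 7.02 against 46.9 and 44.4. In the cluster led by Tspan8 and Thbs2 they were 8.28 and 12.1 against 63.4 and 50.7. The level in the Cnmd and Sost cluster was the lowest of these 3 in both aged libraries. The cluster led by Sele and Lrg1 held 11.4% and 15.3% of young and 34% and 25.6% of aged endothelial cells, so the make-up of the class differed between the ages.

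**Figure D2:**
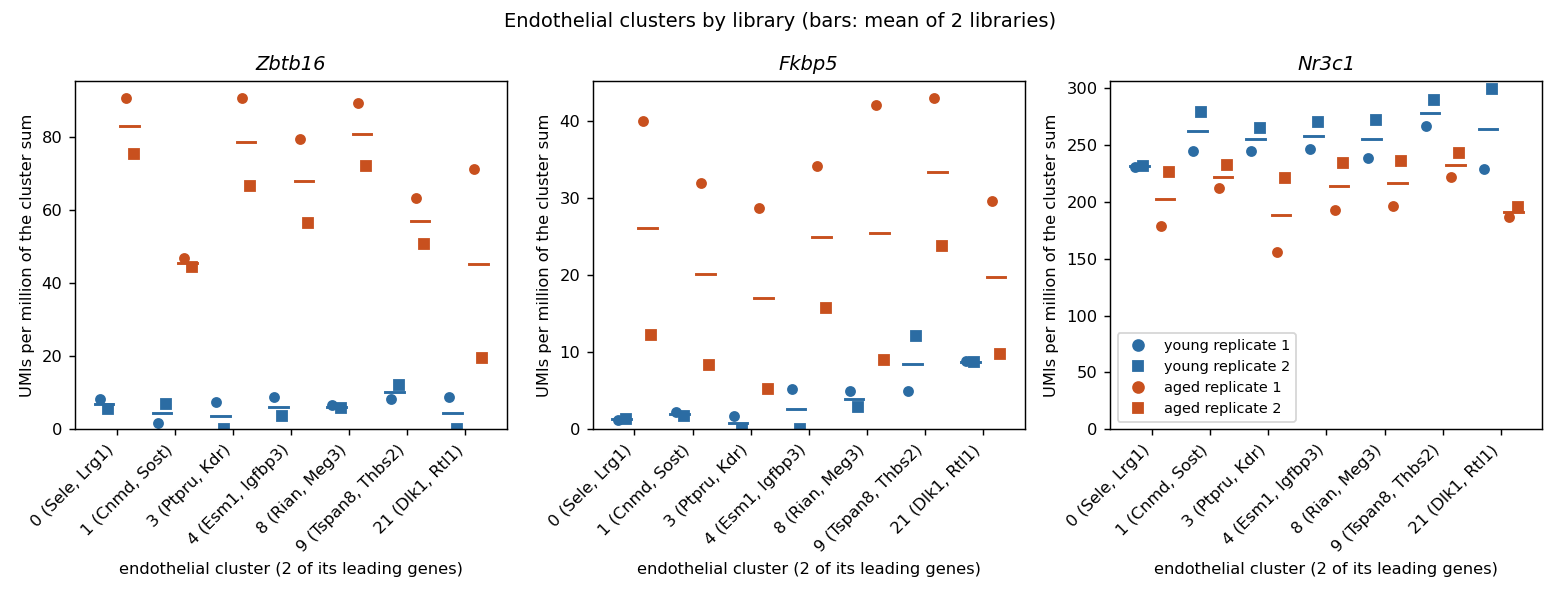
CPM of the cluster sum (y axis, linear, from 0) of Zbtb16, Fkbp5 and Nr3c1 in 7 endothelial clusters, which are labelled by number and 2 of their leading genes; points are libraries and bars the means of 2. In every cluster the aged points of Zbtb16 and Fkbp5 lie above the young ones, with the smallest gap for Fkbp5 in cluster 21, and those of Nr3c1 lie below. In cluster 21 the Fkbp5 points of both young libraries and of aged replicate 2 rest on 1 UMI each.

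Mesangial cells fell into 2 clusters that the ages shared unequally. The one led by Rab3c and Cxcl13 comprised 28 and 18 young and 502 and 364 aged cells of the class, and the one led by Steap4 and Erich4 held 211 and 126 young and 31 and 13 aged cells. In the first, Zbtb16 stood at 0 and 18.1 CPM in the young libraries and at 95.5 and 51.8 in the aged libraries. In the second it stood at 20.9 and 3.37 against 113 and 47.8, the last of which rests on 3 UMIs. The aged levels were thus above the young ones in both clusters, and the cells of a cluster that were rare at 1 age gave few UMIs.

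Markers of other cells moved with age in the endothelial sums. The 6 macrophage markers summed to 2.07 and 4.90 CPM in the young libraries and to 13.5 and 16.2 in the aged libraries, with 4 of 6 at 0 in young replicate 1 and 1 of 6 in young replicate 2. The 7 mesangial markers summed to 34.4 and 63.4 against 101 and 112, with none at 0, and the 8 podocyte markers to 925 and 1304 against 824 and 795. The 5 parietal epithelial markers summed to 384.9 and 371.8 against 703.8 and 488. Of these, 3 were at 0 in young replicate 1 and 2 in each other library. The part of these cells in the endothelial values was not tested. In the mesangial sums the 6 smooth muscle and renin markers summed to 83.5 and 47.8 against 258 and 172, with 1 to 3 of the 6 at 0, and the 5 parietal epithelial markers to 305 and 325 against 2016 and 817, with 2 or 3 of the 5 at 0. The part of these in the mesangial values was not tested.

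The classes were compared with each other in a single edgeR fit over all 4 libraries, with the library as a block and the age effect of each class in the model. The members were not chosen on these differences, so they could be tested. Of 36 member differences (6 genes in 6 pairs of classes), 31 had a Benjamini-Hochberg adjusted p under 0.05. The share of all 13067 genes called was 77% for endothelial cells against podocytes, 65.8% for mesangial cells against podocytes, 34.8% for parietal epithelial cells against podocytes, 54.5% for mesangial against endothelial cells, 41.6% for parietal epithelial against endothelial cells and 34.7% for parietal epithelial against mesangial cells. From 34.7% to 77% of genes thus differed between a pair of classes, so the size of a difference says more than its call.

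The receptor gene was higher in endothelial and mesangial cells than in podocytes. Nr3c1 was higher in endothelial cells than in podocytes by 1.32 on the log2 scale (SE 0.09, adjusted p 4.22e-16) and higher in mesangial cells than in podocytes by 1.78 (SE 0.09, adjusted p 1.09e-18). It was 0.45 higher in mesangial than in endothelial cells (SE 0.09, adjusted p 2.87e-05). Parietal epithelial cells and podocytes differed by −0.07, with a 95% interval of −0.43 to 0.29 (edgeR adjusted p 0.836).

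Sgk1 marked endothelial cells. It stood 5.48 higher there than in podocytes on the log2 scale (SE 0.12, edgeR adjusted p 1.30e-29), with 969 to 1192 CPM against 21.2 to 28.9 over the 4 libraries. In mesangial cells Sgk1 ranged from 288 to 355, which was 1.74 below endothelial cells (SE 0.10, adjusted p 1.14e-16) and 3.74 above podocytes (SE 0.12, adjusted p 2.21e-24). The order endothelial, mesangial, parietal epithelial and podocyte held for Sgk1 with every neighbouring pair called.

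Fkbp5 and Zbtb16 were both lowest in podocytes. Fkbp5 was higher in mesangial than in endothelial cells by 2.68 (SE 0.22, edgeR adjusted p 3.92e-13), and it was higher in endothelial cells than in podocytes by 1.89 (SE 0.30, adjusted p 6.23e-07). Zbtb16 was higher in endothelial cells than in podocytes by 4.90 (SE 0.36, adjusted p 1.70e-14) and higher in mesangial cells than in podocytes by 5.58 (SE 0.46, adjusted p 4.77e-13). The young podocyte libraries held 0 and 1 UMIs of Zbtb16, so the sizes against podocytes depend on how the fit treats counts near 0. Mesangial and endothelial cells differed in Zbtb16 by 0.68 (SE 0.24, adjusted p 0.0167), and this call was lost without young replicate 1, where the difference was −0.10 (adjusted p 0.927). It was also lost without aged replicate 1 (edgeR adjusted p 0.057), with mixed cells kept (edgeR adjusted p 0.169) and with DESeq2 (adjusted p 0.215).

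Tsc22d3 ran the other way. It was lower in mesangial cells than in podocytes by 1.85 on the log2 scale, a difference of −1.85 (SE 0.14, edgeR adjusted p 3.28e-14), and lower in mesangial than in endothelial cells, with −1.63 (SE 0.14, adjusted p 1.45e-12). Endothelial cells and podocytes differed by −0.22 (SE 0.09, adjusted p 0.0296), and this small difference lost its call in 5 alternatives, among them DESeq2 (adjusted p 0.45). In young libraries Tsc22d3 stood at 94.0 and 85.9 CPM in endothelial cells and at 102 and 74.9 in podocytes, which overlapped. In aged libraries it stood at 116 and 109 against 203 and 137. This class difference thus lay in the aged libraries, and the members were chosen on the age contrast. The level of Tsc22d3 reached 188 to 379 CPM in B cells. Klf9 was higher in endothelial cells than in podocytes by 1.05 (SE 0.09, adjusted p 1.16e-12) and lower in mesangial than in endothelial cells by a small margin, −0.23 (SE 0.09, adjusted p 0.0374), a call lost without young replicate 1, young replicate 2 or aged replicate 2. Klf9 differed by −0.02 between parietal epithelial cells and podocytes (95% interval −0.30 to 0.26, adjusted p 0.981). The other differences that were not called were those of Zbtb16 between parietal epithelial cells and endothelial cells (−0.21, 95% interval −1.18 to 0.76) and between parietal epithelial and mesangial cells (−0.89, 95% interval −1.82 to 0.04), and that of Tsc22d3 between parietal epithelial and mesangial cells (0.05, 95% interval −0.61 to 0.71).

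**Figure D3:**
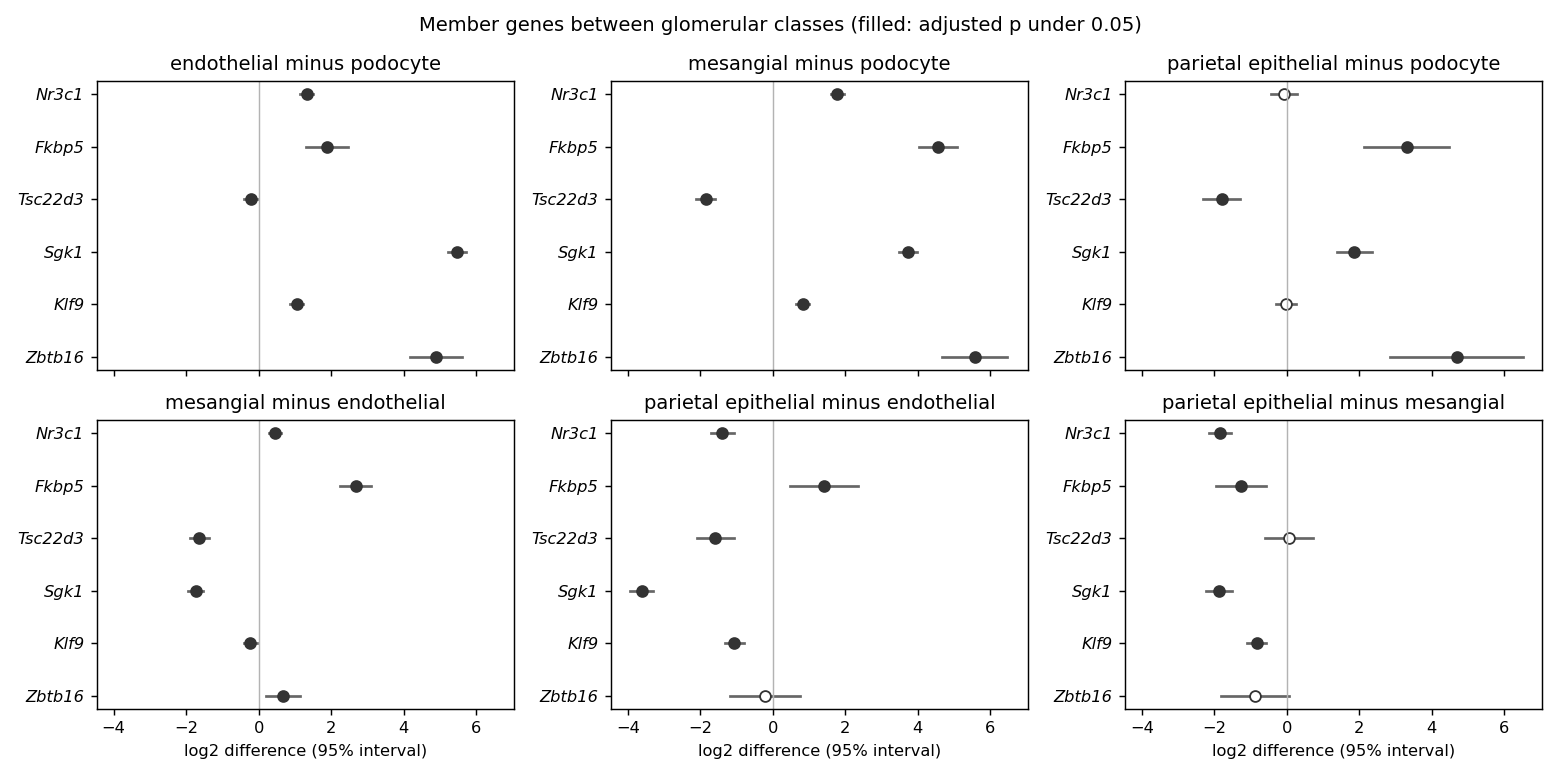
Log2 difference between 2 glomerular classes (x axis) for each of the 6 genes, 1 panel per pair; points are edgeR estimates over 4 libraries, lines 95% intervals, and filled points have an adjusted p under 0.05. Sgk1 lies at 5.48 for endothelial cells minus podocytes, and Tsc22d3 lies left of 0 where mesangial cells are compared with podocytes or endothelial cells.

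Genes whose level followed that of Zbtb16 were ranked over the 16 sums of 4 glomerular classes and 4 libraries, which share libraries, depth and the age groups. The highest Pearson correlations on the log2(CPM + 1) scale among 11213 genes were those of Stk40 (r 0.89), Rnf115 (0.888), mt-Tc (0.869), mt-Tn (0.863) and Tubb6 (0.863). Fkbp5 was at rank 21 with 0.809. The other members followed Zbtb16 less closely, with Sgk1 at rank 698, Klf9 at 1343, Nr3c1 at 2095 and Tsc22d3 at 7982. The members were chosen on the age contrast that these sums hold, so their ranks are a description without a test.

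Endothelial cells with a Zbtb16 UMI after thinning were then compared with those without one in the same library. Cells were thinned to 1000 UMIs in a separate random draw, which left 18, 7, 403 and 247 positive cells in young replicates 1 and 2 and aged replicates 1 and 2. The negative side includes cells whose Zbtb16 UMIs were not drawn. In the aged libraries most cells that held a Zbtb16 UMI before thinning fell on that side. The edgeR test with the library as a block called 2 of 6938 genes (0.0288%), and 300 had an unadjusted p under 0.05. DESeq2 called 0 of the 6938 and had 24 at that unadjusted level. None of the 4 members that passed the count filter was called.

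Sgk1 differed by −0.22 on the log2 scale (95% interval −0.61 to 0.17), Tsc22d3 by −0.15 (−0.56 to 0.26), Nr3c1 by −0.08 (−0.43 to 0.26) and Klf9 by 0.05 (−0.26 to 0.35), each with an edgeR adjusted p of 0.995. These intervals leave room for moderate differences in either direction. Fkbp5 did not pass the filter. In aged replicate 1 it had 22 UMIs in 403 positive and 203 in 5458 negative cells, a ratio per cell of 1.47 (exact counting interval 0.90 to 2.28). In aged replicate 2 it had 3 UMIs in 247 positive and 47 in 3986 negative cells, a ratio of 1.03 (0.205 to 3.20). Cells in which Zbtb16 was drawn thus did not have detectably more Fkbp5 than the rest at this depth. The rest include cells with undrawn Zbtb16 UMIs, so the split cannot decide whether the genes go together in a cell.

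The 2 called genes were lower in positive cells, and they are named here after their values were seen. Txnip, one of the 4 listed genes with the motif, differed by −0.88 (SE 0.17, edgeR adjusted p 0.00142), and Dlk1, an imprinted gene that leads a small endothelial cluster, by −1.39 (SE 0.25, adjusted p 0.000116). That cluster held 0.993% of positive and 1.54% of negative cells in aged replicate 1 and 0% and 0.652% in aged replicate 2. Both calls were lost without aged replicate 1 (edgeR adjusted p 0.9999 for Txnip and 0.14 for Dlk1) and without aged replicate 2. Within the largest endothelial cluster Txnip differed by −0.31 (adjusted p 0.998), and with doublets kept Dlk1 turned to 0.22.

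**Figure D4:**
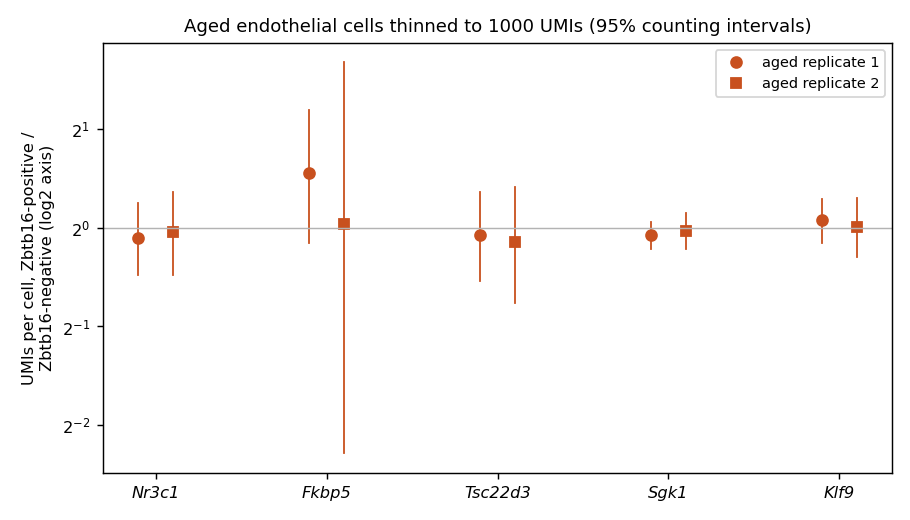
Ratio of UMIs per cell in Zbtb16-positive over Zbtb16-negative endothelial cells of the aged libraries (y axis, log2 scale), all cells thinned to 1000 UMIs; points are ratios and lines exact 95% counting intervals. In both aged libraries the interval of each of the 5 genes includes 1.

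Other genes of the response were taken as lists from general knowledge, with earlier results of these data known. The first held 32 further genes that glucocorticoids induce, the second 14 genes for the mineralocorticoid receptor, chaperones, coactivators and steroid handling, the third 10 inflammatory genes that glucocorticoids repress, and the fourth 15 genes that tissue dissociation induces. Each gene was tested for aged against young in edgeR over all genes of the class. No list was tested as a whole, and since earlier results were known, the counts per list are a description.

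Of the induced genes, 10 of 27 tested were higher and 0 lower in aged endothelial cells, with a median log2 difference of 0.42. Over all 13112 genes tested 6.35% were called, 4.23% higher and 2.13% lower, and the median was −0.01. The largest differences were those of the metallothioneins, which bind zinc and buffer metals. Mt2 stood at 94.2 and 69.9 CPM in the young libraries and at 239 and 204 in the aged libraries (log2 difference 1.54, SE 0.17, edgeR adjusted p 2.29e-06), and Mt1 at 492 and 405 against 1269 and 1032 (1.47, SE 0.18). Galnt15, a glycosyltransferase, differed by 1.24 (SE 0.23, adjusted p 0.000987) and Dusp1, a phosphatase that ends MAP kinase signals, by 1.17 (SE 0.18, adjusted p 0.000143). Of the 4 listed genes with the motif, Mt1, Map3k6 and Fam107a were called here, and only Mt1 in podocytes and in mesangial cells. The part of the motif in these differences was not tested. Cebpb, Map3k6, Nfkbia, Fam107a, Ddit4 and Tgm2 were called as well, which completes the 10 genes. The count was 4 without young replicate 1 and 6 without young replicate 2.

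In podocytes 10 of 24 induced genes were higher and 2 lower, with a median of 0.37, against 6.89% called, 4.41% higher, 2.48% lower and a median of 0.00 over all 10774 genes. Klf15, a transcription factor of the podocyte's glucocorticoid response, stood at 4.89 and 5.15 CPM in the young libraries and at 26.1 and 22.05 in the aged libraries (log2 difference 2.31, SE 0.23, edgeR adjusted p 1.29e-09). Mt2 differed by 2.21 (SE 0.14), Mt1 by 2.10 (SE 0.16) and Cebpd, a transcription factor, by 1.82 (SE 0.15, adjusted p 5.21e-12). Dusp1 and Errfi1, an inhibitor of EGF receptor signals, were lower, by −0.83 (SE 0.14, adjusted p 5.03e-05) and −0.74 (SE 0.19, adjusted p 0.0106). Dusp1 was thus lower in aged podocytes and higher in aged endothelial cells, and the difference between the classes was not tested. In the podocyte sums the 6 smooth muscle and renin markers summed to 17.96 and 21.23 CPM in young and 69.82 and 47.6 in aged libraries, and the 5 parietal epithelial markers to 81.23 and 111.6 against 55.24 and 58.31. Of the 6, 1 to 4 were at 0 in each sum, and of the 5, Cdh6 was at 0 in all 4. Their part in the podocyte values was not tested.

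In mesangial cells 6 of 25 induced genes were higher and 0 lower, with a median of 0.34, against 5.38% called, 3.57% higher, 1.81% lower and a median of 0.00 over all 9368 genes. Klf15 differed by 2.49 (SE 0.66, edgeR adjusted p 0.0464), Mt2 by 2.22 (SE 0.20, adjusted p 4.05e-05), Mt1 by 2.14 (SE 0.20, adjusted p 6.94e-05) and Errfi1 by 1.40 (SE 0.31, adjusted p 0.0227). No mesangial gene at all was called without young replicate 1 or without young replicate 2, so these calls rest on both. The 2 ages were also held by different mesangial clusters, as described above. In parietal epithelial cells 0 of 13 induced genes and 0 of all 3931 genes (0%) were called in edgeR, with 5 of the 13 and 342 of all at an unadjusted p under 0.05, and DESeq2 called 31 genes.

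Of the genes that glucocorticoids repress, 6 of 9 tested were higher and 0 lower in aged endothelial cells, with a median of 1.19, beside 4.23% of all genes higher. The count was 4 without young replicate 1, 3 without young replicate 2 and 0 without the filter on low counts. Il6, an inflammatory cytokine, stood at 27.9 and 26.0 CPM in the young libraries and at 135 and 167 in the aged libraries (log2 difference 2.60, SE 0.16, edgeR adjusted p 6.63e-10), and the adhesion molecule Vcam1 at 11.5 and 19.6 against 49.2 and 74.1 (2.16, SE 0.21). Cxcl1, a chemokine, differed by 1.34 (SE 0.19) and Ptgs2, which makes prostaglandins, by 1.19 (SE 0.24). In mesangial cells 5 of 7 were higher and 0 lower, with a median of 1.10, led by the chemokine Ccl2 at 16.9 and 24.7 against 244 and 447 (4.23, SE 0.32), then Ptgs2 (2.87, SE 0.23), Vcam1 (1.66, SE 0.16) and Il6 (1.10, SE 0.21). No mesangial gene of the list was called without young replicate 1, without young replicate 2 or without the filter. In podocytes 1 of 2 tested was higher (Cxcl1, 0.88, SE 0.22), a call lost without young replicate 1, without aged replicate 2, with DESeq2 and with mixed cells kept. In parietal epithelial cells 0 of 3 were called in edgeR. Sele, also called in endothelial cells (1.18, SE 0.19), is the first gene of the largest endothelial cluster.

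Of the chaperones and steroid-handling genes, 3 of 11 tested were higher and 0 lower in aged endothelial cells, with a median of 0.40. This stands beside 4.23% of all genes higher. In podocytes 1 of 11 was higher (median 0.11, beside 4.41%), and in mesangial cells 2 of 12 (median 0.13, beside 3.57%). In parietal epithelial cells 0 of 8 were called in edgeR. Stip1, a co-chaperone that links HSP70 and HSP90, was higher in endothelial cells (log2 difference 1.40, SE 0.26), podocytes (0.69, SE 0.19) and mesangial cells (0.95, SE 0.25). It stood at 105 and 267 CPM in the aged endothelial libraries against 81.4 and 70.4 in the young ones, so aged replicate 2 was the higher of the aged pair. In endothelial cells Fkbp4 (0.77, SE 0.23) and Hspa8 (0.73, SE 0.21) were also called, 3 of 11 tested in all, and none of the 3 was called without aged replicate 2, without young replicate 2 or without the filter on low counts, while 1 gene of the list was called without young replicate 1 and 1 with DESeq2. The Stip1 call was likewise lost in podocytes without aged replicate 2, without young replicate 2, with DESeq2 and with mixed cells kept, and in mesangial cells without aged replicate 2, with either young library left out, without the filter and with mixed cells kept. In mesangial cells Abcb1a, a transporter that carries steroids out of cells, differed by 1.35 (SE 0.28, edgeR adjusted p 0.0162), and this call too was lost with either young library left out and without the filter.

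Genes induced by dissociation were counted beside these lists. In endothelial cells 1 of 15 was called, Ier3 (log2 difference 0.92, SE 0.18, edgeR adjusted p 0.00226), beside 4.23% of all genes higher. The median was 0.00, and 7 of the 15 had an unadjusted edgeR p under 0.05. With DESeq2 4 were higher, and with the replicate number as a block 4 were higher and 1 lower. Without the filter on low counts 0 were called. In podocytes 5 of 15 were higher, with a median of 0.17 and Dnajb1 first (1.40, SE 0.14), beside 4.41% of all genes higher. The podocyte count was 3 without aged replicate 1, 1 without aged replicate 2, 3 with DESeq2 and 0 with mixed cells kept. In mesangial cells 5 of 15 were lower, with a median of −0.40 and Egr1 first (−1.26, SE 0.17), and 0 were called with either young library left out or without the filter. Of all genes tested in mesangial cells, 1.81% were lower. The part of dissociation in the endothelial, podocyte and mesangial values was not tested.

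**Figure D5:**
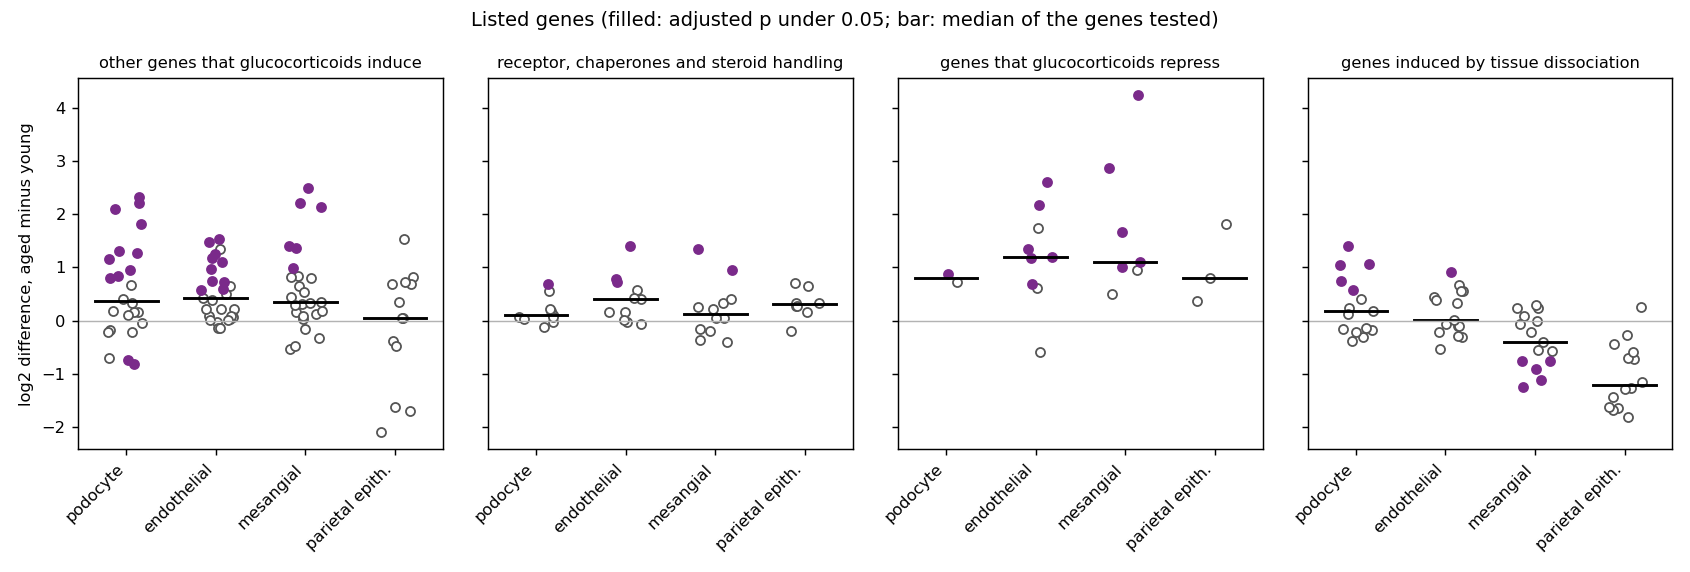
Log2 difference of aged minus young (y axis) of each tested gene of 4 lists, by glomerular class; filled points have an edgeR adjusted p under 0.05 and bars are medians over the tested genes of the list. The median of induced genes lies at 0.42 in endothelial cells, 0.37 in podocytes and 0.34 in mesangial cells, and that of dissociation genes at 0.00, 0.17 and −0.40.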

How the data were processed

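The deposited matrices held raw UMI counts per gene and barcode; per the submitters' processing notes and the file headers they came from Cell Ranger 6.0.1, per the labels' protocols from version 3.1.0, aligned to GRCm38. Barcodes with at least 500 genes and at most 20% mitochondrial UMIs were kept. Doublets were removed by Scrublet score at 0.8% per 1000 barcodes, since its automatic threshold marked almost none in 3 libraries. Cells were clustered in scanpy 1.11.5 with leidenalg 0.10.2 (2000 variable genes without the members and listed genes, 30 components, 15 neighbours, resolution 1), giving 26 clusters, of which 22 were named by markers. The thresholds used for naming were chosen with the data in view. Clusters with markers of unrelated classes, and single cells of that kind, were left out.

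Sums of counts over the cells of each class in each library (20 cells or more) were tested in edgeR 4.0.16 by quasi-likelihood (TMM, default filter, Benjamini-Hochberg adjusted p under 0.05); DESeq2 1.42.0 was an alternative. SE is the log2 difference divided by the square root of F. Of 52636 gene IDs, 52489 (99.7%) were found in GENCODE for GRCm38, which gave positions. Counting intervals are exact, at 95%, and floors use 3 counts; both cover counting error only. The members and lists were chosen with earlier results of these data known. Named were all members, up to 4 called genes per list, class and direction by size, and the 5 genes most correlated with Zbtb16. Each test was tested on simulated data with 200 changed genes: in the simulated Zbtb16 split, 96% of genes raised 4-fold and 18% of those raised 2-fold were recovered among 6926 tested. Of genes lowered to a fold of 0.25 and of 0.5, 60% and 26% were recovered. The simulated sums shared a single profile and a single spread for every gene, and only well counted genes were changed. These shares thus do not give the power of the tests on the real sums.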

Additional observations from a re-analysis of the deposited data

Results flagged for a closer look

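Of the 6 genes, 3 had both aged libraries above the young pair in some classes and below it in others, in CPM without TMM scaling. These differences between classes were not tested, since the genes were chosen on the age contrast.

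For Fkbp5 the log2 ratio of the aged over the young mean was 1.95 in podocytes, 3.10 in endothelial cells, 1.77 in mesangial cells, 1.88 in smooth muscle and renin cells and 1.87 in monocytes and dendritic cells, against −0.82 in T and NK cells. The last value rests on 6 young and 6 aged UMIs, with a summed ratio of 0.571 (exact counting interval 0.153 to 2.13), and that of smooth muscle and renin cells on 1 and 3 UMIs (ratio 3.59, interval 0.288 to 188). For Klf9 the log2 ratio was 0.11 in endothelial cells, −0.39 in mesangial cells (where the ages overlap after TMM scaling), −0.34 in smooth muscle and renin cells, −0.87 in monocytes and dendritic cells and 2.31 in T and NK cells. The T and NK value rests on 1 young and 7 aged UMIs (ratio 3.99, interval 0.513 to 180), and that of monocytes and dendritic cells on 22 and 54 (0.573, interval 0.343 to 0.988). For Nr3c1 it was −0.27 in endothelial and −0.43 in mesangial cells and 1.09 in T and NK cells, with 37 young and 138 aged UMIs in the latter (ratio 2.13, interval 1.47 to 3.15). T and NK cells were thus the class, of the 8, in which the receptor gene stood higher in both aged libraries, at 128 and 253 against 263 and 549 CPM in 30, 45, 58 and 78 cells. The counting intervals given here cover counting error only. They leave out the spread between libraries of an age, which was wide for Nr3c1 in T and NK cells.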

How the results depend on the processing

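The endothelial difference of Zbtb16 moved by less than its spread between libraries in all alternatives. The number of genes called between the ages was 742 for podocytes, 833 for endothelial cells, 504 for mesangial cells and 0 for parietal epithelial cells, and it depended on the setting. DESeq2 gave 259, 507, 257 and 31. Without a filter on low counts it was 0 in endothelial and mesangial and 75 in parietal epithelial cells. With mixed cells kept it was 85 in podocytes and 792 in mesangial cells. Leaving out 1 library gave 304 to 930, 206 to 764, 0 to 1254 and 0 to 56. With the replicate block the counts were 912 for podocytes, 1279 for endothelial cells, 848 for mesangial cells and 147 for parietal epithelial cells. Same-numbered libraries deviated together by correlations of 0.027, 0.074, 0.02 and 0.438 in podocytes, endothelial, mesangial and parietal epithelial cells, and nothing in the labels says that a number marks a shared source, so the numbers were not taken to pair the libraries.

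Of the other induced genes 12, 10, 6 and 0 were called in the 4 classes in the same order. Leaving out 1 library gave 8 to 14, 4 to 8, 0 to 10 and 0 to 1. Mixed cells kept gave 7 in podocytes, no filter gave 0 in endothelial and mesangial and 3 in parietal epithelial cells, DESeq2 gave 2 and the replicate block 4 in parietal epithelial cells. The Zbtb16 split called 2 genes, and it called 1 without the filter, 5 with doublets kept and 0 with DESeq2, with listed genes among the clustering genes, with 500 UMIs per cell and within the largest cluster. Leaving out 1 library gave 0 to 3.

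Signs turned for Sgk1 in mesangial cells with mixed cells kept (−0.33), also for Tsc22d3 (−0.476) and Nr3c1 (0.0034) there and for Sgk1 in podocytes (−1.52), for Tsc22d3 in parietal epithelial cells without young replicate 2 (1.25), for Klf9 in mesangial cells with mixed cells kept (0.0085) and without aged replicate 2 (−0.53 to 0.0019 over the libraries left out), Zbtb16 between mesangial and endothelial cells without young replicate 1 (−0.10 to 0.87 over the libraries left out), Cxcl1 in podocytes with mixed cells kept (−0.73) and Dlk1 in the split with doublets kept (0.22). Values of the members near 0 turned under further alternatives. The cause was not tested. Between classes, 341 of 360 alternative values of the members kept their side of the threshold, and those called among them kept their direction. A change of sign was not counted where a difference was uncalled both in the main fit and in the alternative. In data simulated for the parietal epithelial comparison over 4103 genes, 100% of the genes raised by a fold of 4 and 54% of those raised by a fold of 2 were called. Of genes lowered to a fold of 0.25 and of 0.5, 82% and 34% were called. The simulated libraries shared a single make-up and a single spread, unlike the real ones, so these shares do not give the power of the real test.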
